A study of Mus musculus with 4 samples.

Results

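The Zic genes encode a small family of zinc finger transcription factors, and 4 of them, Zic1, Zic2, Zic4 and Zic5, were followed here among the 23537 genes of an RNA-seq table from mouse embryonic fibroblasts (MEFs). They are the rows of that table that carry one of these 4 gene names, and they were chosen by their raw counts in KO against WT cells, which were already known. Their KO against WT values are therefore given as a description with no test. Primary MEFs were isolated from C57BL/6 embryos at day 12.5 post coitum and carried either no functional copy of Mbd4 (Mbd4-/-, KO, 2 libraries) or the intact gene (WT, 2 libraries). RNA of subconfluent cultures was depleted of ribosomal RNA and sequenced with the strand kept. MBD4 is a DNA glycosylase that binds methylated CpG dinucleotides and removes thymine from G/T mismatches, and the study asked what its loss does to DNA methylation and gene expression. The sources call the 2 RNA samples of each genotype independent without saying whether they came from separate embryos, so every p-value below measures only the spread between these libraries.

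ZIC proteins carry a tandem array of C2H2 zinc fingers closely related to that of the GLI factors, the transcriptional effectors of Hedgehog signalling, and they can bind GLI-type DNA sites. In vertebrate embryos they are known from the dorsal neural tube, the neural plate border, the neural crest, the somites, the meninges and the cerebellum. The genes lie in divergent pairs, an arrangement in which neighbouring genes are transcribed away from each other. Mutations of ZIC2 cause holoprosencephaly in humans, a failure of the forebrain to divide, and the loss of ZIC1 together with ZIC4 has been linked to Dandy-Walker malformation of the cerebellum.

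In the mm9 annotation Zic1 occupied chr9:91252896-91260648 on the minus strand and Zic4 chr9:91257251-91284186 on the plus strand. The annotated genes overlapped by 3398 bases, of which 60 were exonic in both, or 1.05% of the exon length of Zic1 and 0.581% of that of Zic4. Reads from these 60 bases could be assigned to either gene unless the counting used the strand, which the sources used here leave unstated. Zic5 occupied chr14:122856017-122864899 on the minus strand and Zic2 chr14:122874604-122879074 on the plus strand. The pair left 9704 bases between its genes, and neither gene overlapped another annotated one.

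The sequences just upstream of RefSeq starts are shown because CpG dinucleotides are the bases that MBD4 binds when methylated. RefSeq windows of 250 bases upstream of the start (assembly GRCm38.p6, 5′ to 3′ on the strand of the gene) matched 3 of the 4 genes. Each CpG dinucleotide is in capitals. The windows are chr9:91365769-91366018 for Zic1 (minus strand), chr9:91368722-91368971 for Zic4 (plus strand) and chr14:122465659-122465908 for Zic5 (minus strand).
Zic1: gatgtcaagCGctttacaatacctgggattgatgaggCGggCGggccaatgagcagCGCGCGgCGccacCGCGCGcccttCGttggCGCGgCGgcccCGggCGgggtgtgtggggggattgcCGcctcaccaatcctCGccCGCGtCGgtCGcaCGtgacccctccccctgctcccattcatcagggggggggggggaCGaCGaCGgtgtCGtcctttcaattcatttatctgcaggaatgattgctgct
Zic4: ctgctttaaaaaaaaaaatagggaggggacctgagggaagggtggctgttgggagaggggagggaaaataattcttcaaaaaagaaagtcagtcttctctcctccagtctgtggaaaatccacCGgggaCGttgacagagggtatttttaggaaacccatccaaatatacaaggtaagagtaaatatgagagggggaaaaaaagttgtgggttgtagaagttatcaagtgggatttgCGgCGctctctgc
Zic5: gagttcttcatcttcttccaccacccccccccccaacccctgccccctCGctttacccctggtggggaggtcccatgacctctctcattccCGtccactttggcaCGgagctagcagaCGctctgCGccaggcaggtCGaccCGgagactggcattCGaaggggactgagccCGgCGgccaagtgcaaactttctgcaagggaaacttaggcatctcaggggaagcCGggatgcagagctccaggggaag

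The 3 windows differed in base composition. The Zic1 window held 27 CpGs at 66.0% G+C, more CpGs than 91.4% of 32851 RefSeq promoter windows of the same length, whose median was 6 CpGs and 52.4% G+C. The Zic5 window held 11 CpGs at 62.4% G+C, more than 64.4% of the windows. The Zic4 window held 4 CpGs at 44.4% G+C, more than 37.8% of the windows. It belongs to a start of Zic4 to the right of the Zic1 start, whereas the outermost Zic4 start in the mm9 annotation lies to the left of it, so it does not describe that start. Short motifs were searched on both strands, namely the GC box (written GGGCGG), the core of the TATA box (written TATAA), the CCAAT box, a string known from ZIC binding sites (written CAGCAGG), and one known from GLI sites (written GGGTGGT). The Zic1 window held 2 GC boxes, which 32.7% of all windows hold, and 2 CCAAT boxes, which 33.9% hold. The Zic5 window held 1 match of the GLI-type string, present in 3.92% of windows, and none of the other motifs matched in any of the 3 windows (the TATA core was present in 22.8% and the ZIC-type string in 8.44% of all windows). No methylation was measured in the table used here.

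All 4 genes were counted at higher levels in both KO libraries than in both WT libraries, and their order of abundance differed between the genotypes. Zic1, needed with Zic4 for cerebellar growth in the mouse, was the most abundant of the 4. Its raw counts were 10381 and 9183 in KO, against 2235 and 2331 in WT. As CPM (read counts per 1e6 of the library total after TMM scaling), this was 218 and 223 CPM in KO and 49.9 and 56.9 CPM in WT. The groups did not overlap, and the lowest KO value was 3.84 times the highest WT value. The log2 fold change was 2.05 with a standard error of 0.07, a fold of 4.13. Zic1 was thus already well expressed in WT fibroblasts.

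Zic4, the divergent partner of Zic1, had 1126 and 877 counts in KO, against 155 and 135 in WT. These counts corresponded to 23.7 and 21.3 CPM in KO and 3.46 and 3.30 CPM in WT, again with no overlap. Its log2 fold change was 2.73 (SE 0.12), a fold of 6.65, so the genes of the chromosome 9 pair differed by less than 1 log2 unit in their change.

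Zic2, the holoprosencephaly gene of the family, showed the highest fold of the 4. It had 2695 and 2318 counts in KO, against 40 and 18 in WT, or 56.7 and 56.2 CPM in KO and 0.893 and 0.439 CPM in WT. The lowest KO value was 63.0 times the highest WT value. Its log2 fold change was 6.38 (SE 0.16), a fold of 83.2, which ranked 104 among the 15538 genes tested. The KO libraries were nearly identical for this gene, whereas the WT libraries differed 2.03-fold from each other. The size of the fold therefore rested on few WT reads, and it was 127 without WT replicate 1 and 61.5 without WT replicate 2.

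Zic5, the divergent partner of Zic2 and a gene required for neural crest and neural tube development in the mouse, had 825 and 835 counts in KO, against 60 and 37 in WT. The CPM were 17.4 and 20.3 in KO and 1.34 and 0.903 in WT. Both KO values were far above both WT values, and the log2 fold change was 4.05 (SE 0.17), a fold of 16.6. Within the fold range of the 4 genes, both genes on chromosome 14 thus lay above both genes on chromosome 9.

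**Figure D1:**
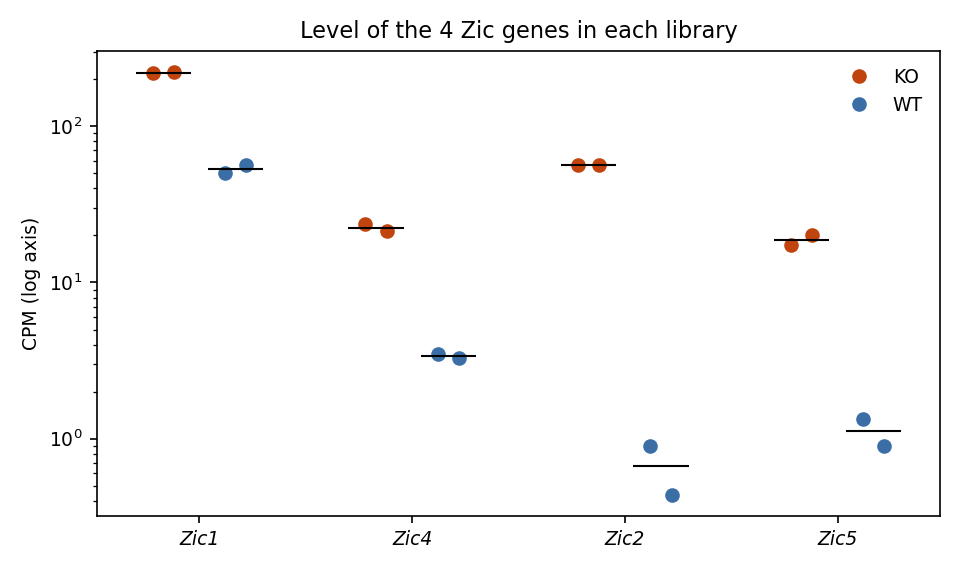
CPM (log axis) of Zic1, Zic4, Zic2 and Zic5 in each of the 2 KO and 2 WT libraries; points are libraries and bars are group means. In every gene both KO points lie above both WT points, with the widest gap for Zic2 (56.7 and 56.2 CPM in KO, 0.893 and 0.439 CPM in WT).

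All 4 genes passed the filter on low counts, all had a log2 fold change above 2, and in all 4 the KO and WT libraries did not overlap. Over the whole table, 5.79% of the tested genes were called higher in KO at an adjusted p under 0.01 with a log2 fold change over 2, and 43.0% had both KO libraries above both WT libraries. Zic1 lay just inside that fold limit at 2.05, and none of the 4 lay outside it. Without WT replicate 1 its log2 fold change was 1.95, which is under the limit. The median log2 fold change of the 4 genes was 3.39, beside 0.02 over all genes tested. Since the genes were selected on these values, no support is drawn from how many passed. The comparisons of their levels and shares below are likewise a description with no test.

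Levels were compared between the genes per kilobase (kb) of transcript, with the gene lengths used in the deposited table. In KO cells the order was Zic1 (38.8 CPM per kb), Zic2 (15.1 CPM per kb), and then Zic5 and Zic4 (3.85 and 3.82 CPM per kb). The KO libraries of Zic5 (3.55 and 4.14 CPM per kb) and Zic4 (4.03 and 3.62 CPM per kb) overlapped, so no order can be given between them with these lengths. With the annotation's exon lengths they did not overlap, and Zic5 formed 6.15% and 7.05% of the summed level of the 4 genes in KO and Zic4 3.97% and 3.50%. In WT cells the order was Zic1 (9.38 CPM per kb), Zic4 (0.574 CPM per kb), and then Zic5 (0.229 CPM per kb) and Zic2 (0.178 CPM per kb), whose libraries overlapped as well. Zic2 thus stood in the second place in KO cells and shared the lowest place in WT cells.

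Against the whole transcriptome, Zic1 was above 89.5% of the tested genes in KO and above 59.4% in WT. Zic2 was above 71.3% of the tested genes in KO and above 9.73% in WT, which is well above the middle in KO and near the bottom in WT. Zic5 stood above 39.8% in KO and 11.6% in WT, and Zic4 above 39.7% in KO and 19.7% in WT, so both stayed below the median gene (6.39 CPM per kb in KO, 6.14 CPM per kb in WT) in either genotype.

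Summed over the 4 genes, the family level was 61.5 ± 0.580 CPM per kb in KO and 10.4 ± 0.703 CPM per kb in WT (SD, n = 2 each), a ratio of 5.93. Zic1 made up 57.4% of the difference between the genotypes, Zic2 29.1%, Zic5 7.08% and Zic4 6.35%. The gene with the highest fold was therefore not the one that added the most RNA.

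The makeup of the sum differed as well. Zic1 formed 62.8% and 63.2% of the summed level in KO, against 88.8% and 92.1% in WT. Zic2 formed 24.8% and 24.3% in KO, against 2.42% and 1.08% in WT. Zic5 formed 5.81% and 6.69% in KO, against 2.78% and 1.70% in WT. The share of Zic4 overlapped between the genotypes, with 6.59% and 5.84% in KO and 5.96% and 5.16% in WT. WT fibroblasts thus held almost only Zic1, and KO fibroblasts held Zic1 with a sizeable part of Zic2.

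**Figure D2:**
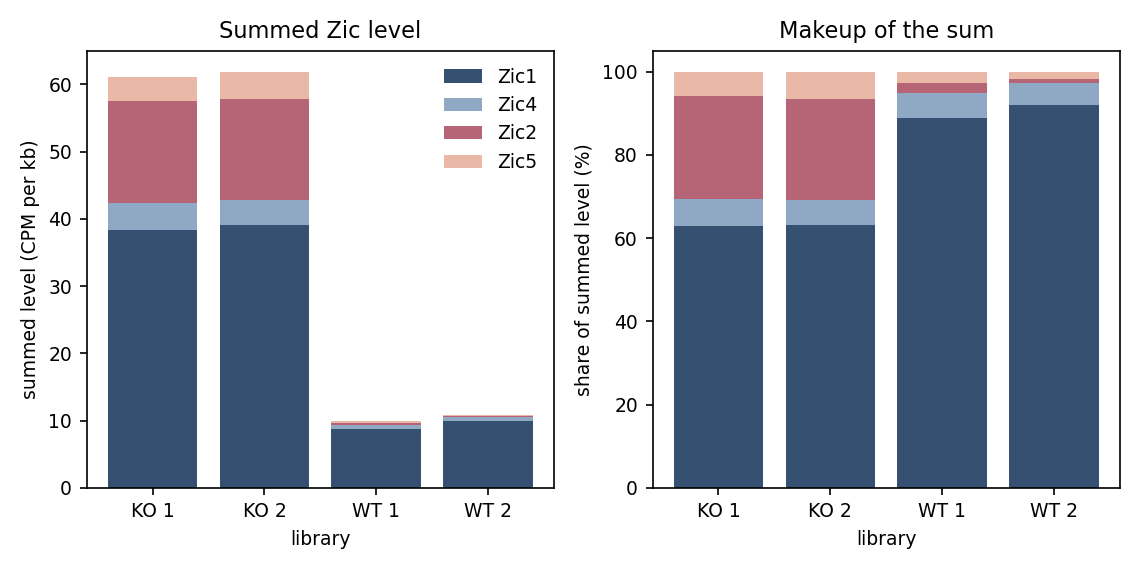
Left, CPM per kb of Zic1, Zic4, Zic2 and Zic5 stacked for each of the 2 KO and 2 WT libraries; right, the same as a percentage of each library's sum. The sum is 61.1 and 61.9 CPM per kb in KO and 9.87 and 10.9 CPM per kb in WT, and the Zic2 segment takes 24.8% and 24.3% in KO and 2.42% and 1.08% in WT.

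Within the chromosome 14 pair Zic2 stood above Zic5 per kb in KO cells, whereas the overlapping WT values gave no order. Per kb, Zic2 was 4.26 and 3.62 times Zic5 in KO, against 0.870 and 0.635 times in WT. As a share of the counts of both genes, Zic2 took 76.6% (95% exact Clopper-Pearson interval 75.1 to 78.0) and 73.5% (71.9 to 75.1) in KO, against 40.0% (30.3 to 50.3) and 32.7% (20.7 to 46.7) in WT. The intervals cover counting error only, and those of the WT libraries are wide because they rest on 58 Zic2 counts in all.

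Within the chromosome 9 pair the balance moved far less. Zic1 took 90.2% (89.7 to 90.8) and 91.3% (90.7 to 91.8) of the counts of both genes in KO, against 93.5% (92.5 to 94.5) and 94.5% (93.6 to 95.4) in WT. Per kb, Zic1 was 9.53 and 10.8 times Zic4 in KO and 14.9 and 17.8 times in WT, and with the exon length of the annotation, which is longer for Zic4, 16.7 and 19.0 times in KO and 26.2 and 31.4 times in WT. Between the pairs, Zic1 was 2.54 and 2.61 times Zic2 per kb in KO, against 36.8 and 85.2 times in WT.

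To see how far the difference reached along the chromosomes, the 10 nearest genes of the table on each side of each pair were examined; they were no part of the choice of the Zic genes. Of these 40 genes, 27 could be tested, of which 10 were higher and 5 lower in KO at an adjusted p under 0.05 (edgeR's quasi-likelihood test, adjusted over all 15538 genes tested), and 12 had no call. Over all genes tested, 34.3% were higher and 32.5% lower by the same limit. The median log2 fold change of the tested neighbours was 0.09, beside 0.02 over all genes.

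On chromosome 14 the genes of the table between and within 11 kb of the pair had more counts in both KO libraries than in both WT libraries. Of all genes tested, 43.0% had both KO libraries above both WT libraries in CPM. The genes around the pair had almost no WT counts and were grouped after their values were seen, so no support is drawn from them. The gap between Zic5 and Zic2 holds the noncoding RNA gene 2610035F20Rik (chr14:122869506-122872801, minus strand), which was singled out after its values were seen. It had 247 and 200 counts in KO, against 1 and 1 in WT, a ratio of 216 (counting interval 59.4 to 1789). Gm5089, 5.7 kb beyond Zic5, had 32 and 21 counts in KO, against 1 and 0 in WT, a ratio of 51.2 (8.80 to 2060). Like 2610035F20Rik, it passed the filter on low counts only through the KO libraries, so its call is no support for a difference. On the other side, 10.7 kb beyond Zic2, Gm10837 had 10 and 13 counts in KO, against 0 and 1 in WT. It was too low to be tested and, being outside the rule for neighbours, was also named after its values were seen.

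The next tested genes had no call. Clybl, a mitochondrial citramalyl-CoA lyase gene 54.6 kb beyond Zic5, had 464 and 362 counts in KO, against 299 and 355 in WT (log2 fold change 0.28, edgeR's adjusted p 0.0994). Pcca, which encodes a subunit of propionyl-CoA carboxylase and lies 54.5 kb beyond Zic2, showed -0.06 on the log2 scale (adjusted p 0.548, same test). Farther out, Tm9sf2, Ubac2 and A2ld1 were lower in KO, with log2 fold changes of -0.90, -0.89 and -0.30, and the integrin-beta-like gene Itgbl1, 1180 kb away, was higher at 3.21 (67 and 51 counts in KO, against 2 and 10 in WT). In all, 2 neighbours of this pair were higher, 3 were lower and 7 had no call. The 2 called higher, Gm5089 and Itgbl1, passed the filter on low counts only through the KO libraries.

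On chromosome 9 the nearest gene of the table lay 260 kb from the pair, and neither of the nearest tested genes passed the test. These were that gene, the pseudogene Gm5620, with a log2 fold change of -0.22 (adjusted p 0.388 in edgeR's test), and the phospholipid scramblase gene Plscr1, 861 kb away, with -0.02 (adjusted p 0.880). Of the 15 tested neighbours, 8 were higher, 2 lower and 5 had no call. The highest was Plscr4, another scramblase gene, with 177 and 181 counts in KO, against 21 and 23 in WT, and a log2 fold change of 2.97. Adamts7 (1.89), Plscr2 (1.60), Slc9a9 (1.18), Tbc1d2b (0.74), Tmed3 (0.62), Chst2 (0.38) and Plod2 (0.18) were also higher, and Ctsh (-0.91) and 1190002N15Rik (-0.30) lower, all on the log2 scale. A2ld1 and 1190002N15Rik lost their call when the libraries were scaled by their totals alone (adjusted p 0.143 and 0.14). Plod2 lost its call without KO replicate 1 (adjusted p 0.12) or without WT replicate 2 (0.11). A2ld1 lost it without KO replicate 1 (0.0669) and 1190002N15Rik without KO replicate 2 (0.079).

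**Figure D3:**
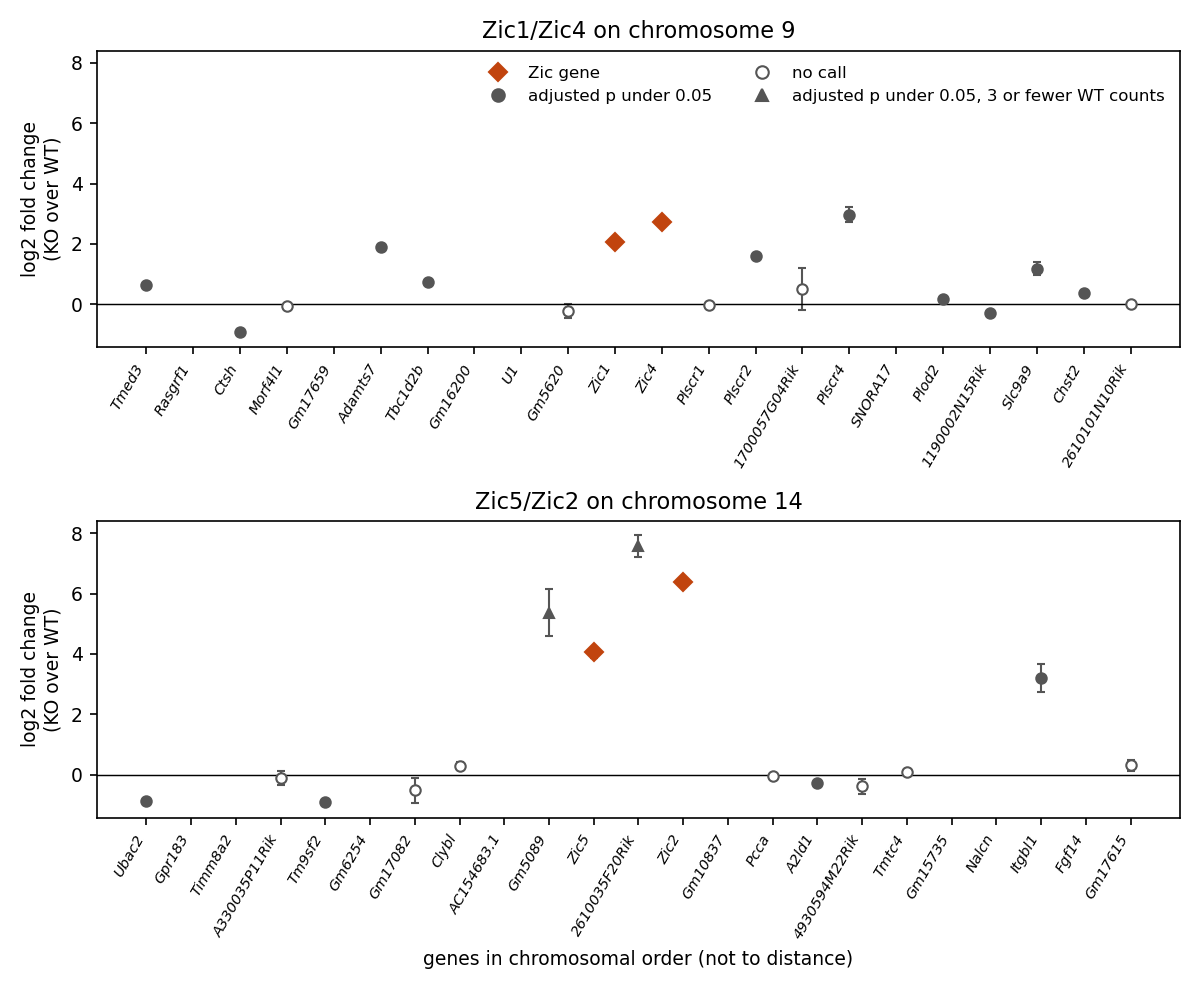
Log2 fold change (KO over WT, ± standard error) of the genes around Zic1/Zic4 (top) and Zic5/Zic2 (bottom), in chromosomal order and not to distance; diamonds are the Zic genes, filled symbols have an adjusted p under 0.05, open circles have no call, triangles had 3 or fewer WT counts so that their height is no estimate of the fold, and names without a symbol were not tested. On chromosome 14, 2610035F20Rik between Zic5 and Zic2 and Gm5089 beside Zic5 are triangles, and Gm10837 beside Zic2 was not tested. Clybl (0.28) and Pcca (-0.06) lie near 0.

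The genes whose ZIC-related biology is known were read from 8 lists of 74 distinct genes, of which 60 were in the table and 44 could be tested. Of these 44, 25 were higher and 11 lower in KO at an adjusted p under 0.05, beside 34.3% and 32.5% of all genes, and 8 had no call. The lists were drawn up with earlier results of these data known.

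Among the 6 Gli and Glis genes, the closest relatives of the Zic family, 5 were higher and 1 was lower. Of all genes tested, 34.3% were higher and 32.5% lower, and the list median log2 fold change was 0.64. Gli1, the activator that is itself a target of Hedgehog signalling, was higher by 1.47, with 140 and 110 counts in KO, against 51 and 36 in WT (adjusted p 5.7e-05, edgeR's test). Glis3, a factor known from kidney and pancreas, was higher by 1.46, and Gli2, the main activator of the pathway, by 0.71. Glis2 was lower, at -0.38, but lost its call without KO replicate 1 (adjusted p 0.0564).

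Of the 7 tested Hedgehog pathway genes, 6 were higher and 1 lower (beside 34.3% and 32.5% of all genes), with a median of 0.83. The co-receptor genes Cdon and Boc were higher by 2.25 and 1.68 on the log2 scale, and Hhip, a decoy receptor that is a target of the pathway, by 1.37. Ptch1, the receptor gene that is another target, was lower at -0.67, with 998 and 879 counts in KO, against 1595 and 1297 in WT (adjusted p 8.7e-06, edgeR's test). The targets Gli1 and Hhip thus stood on the opposite side from Ptch1. Of the genes for proteins that bind ZIC factors and hold them in the cytoplasm, Mdfi was higher (0.74) and Mdfic lower (-0.29), and Mdfic lost its call under scaling by library totals (adjusted p 0.0736).

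Of the 10 tested genes of the neural plate border and neural crest, 5 were higher, 3 lower and 2 without call. The list median was 0.43, and 34.3% of all genes were higher and 32.5% lower. The homeobox genes Msx1 and Msx2, which pattern the neural plate border and also craniofacial and limb mesenchyme, were higher by 4.34 and 3.71. Msx1 had 762 and 669 counts in KO, against 39 and 29 in WT. The AP-2 gene Tfap2a was higher by 1.02. Ets1 (-1.34) and Sox9 (-0.98) were lower. The lower value of Snai1 (-0.23) lost its call with library totals (adjusted p 0.453), with upper quartile scaling (0.119), in DESeq2 (0.0555), without KO replicate 1 (0.403) and without WT replicate 2 (0.052).

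Of 5 tested genes of the dorsal neural tube and cerebellum, 4 were higher (beside 34.3% of all genes) and 1 had no call. En2, a homeobox gene of the midbrain-hindbrain boundary and cerebellum, had 583 and 539 counts in KO, against 2 and 1 in WT. This is a ratio of 361 (counting interval 123 to 1755). Like Gm5089, En2 passed the filter on low counts only through the KO libraries, so its call is no support for a difference. The roof plate gene Gdf7, named after its values were seen, had 46 and 53 counts in KO and 0 in both WT libraries, at least 31.9-fold higher in KO with a floor of 3 counts over the WT group. In all, 7 of the list's 10 genes that the table holds were under 1 CPM in all libraries, among them Wnt1 with no count in KO and 6 and 1 in WT.

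Of 8 tested holoprosencephaly genes other than Zic2, 5 were higher, 1 lower and 2 without call. Of all genes, 34.3% were higher and 32.5% lower, and the list median was 0.49. Besides Cdon, Ptch1 and Gli2, which this list shares with those above, the Notch ligand gene Dll1 was higher by 1.998 and the Hedgehog co-receptor gene Gas1 by 0.83. Of 5 tested genes of the somite and paraxial mesoderm, 0 were higher and 4 were lower (beside 32.5% of all genes). Tbx6 (0.40) had no call. The list median was -1.37, and 5 of the 9 genes in the table were under 1 CPM in all libraries. Meox1, 1 of the 4 lower genes, had 5 and 4 counts in KO, against 40 and 24 in WT. It passed the filter on low counts only through the WT libraries, so its call is no support for a difference. The sclerotome genes Nkx3-2 and Pax9 were lower, at -2.42 and -1.37 on the log2 scale, as was the tendon factor gene Scx at -1.01. Of 5 tested genes of meningeal fibroblasts, Foxc1 (0.93) and Tbx18 (0.72) were higher, S100a6 (-0.42) was lower and 2 had no call.

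**Figure D4:**
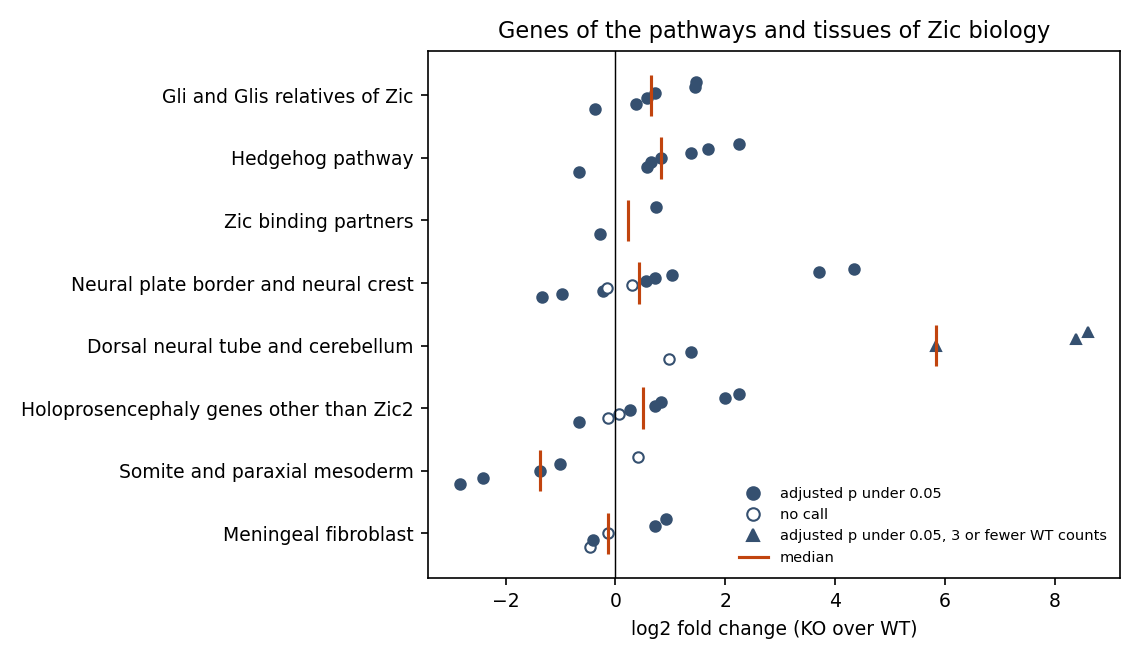
Log2 fold change (KO over WT) of each tested gene in 8 lists of ZIC-related biology, with the list median as a vertical line; filled symbols have an adjusted p under 0.05, open circles have no call, and triangles had 3 or fewer WT counts so that their position is no estimate of the fold. Hedgehog pathway genes lie mostly to the right (median 0.83), and somite genes mostly to the left (median -1.37).

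Other values moved together with the Zic genes between the genotypes. Of 10 fibroblast and mesenchyme markers, none was higher and 7 were lower in KO, beside 34.3% higher and 32.5% lower of all genes tested. The summed levels of the 10 markers were 12710 and 13850 CPM in KO and 23320 and 20960 CPM in WT. The proteoglycan genes Dcn and Lum were nearly lost. Dcn had 5 and 7 counts in KO, against 1349 and 1123 in WT. Lum had 0 and 1 counts in KO, against 142 and 131 in WT. Both passed the filter on low counts only through the WT libraries, so their calls are no support for a difference. Col1a1, the chief collagen gene, was lower, with a log2 fold change of -1.32, and still reached 1112 and 1428 CPM in KO and 3434 and 2885 CPM in WT. Both genotypes expressed the defining collagens of fibroblasts.

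The sums of the neural progenitor and neuron markers were 168 and 160 CPM in KO and 462 and 378 CPM in WT. Among these markers Nes alone gave 136.7 and 130.5 CPM in KO and 426.5 and 341.3 CPM in WT, and so carried the sums. Of 10 such markers, 4 were tested, with Stmn2 higher (3.38), Tubb3 (-2.82) and Nes (-1.52) lower, and 7 were under 1 CPM in all libraries, among them the defining gene Sox2 with 1 and 2 counts in KO and 0 in both WT libraries. Of the neural crest and Schwann markers, Erbb3 was lower (-1.30). No skeletal muscle marker could be tested and neither of the 2 tested endothelial markers had a call. Of the epithelial markers Cdh1 was higher (3.64) and Epcam had no call (-0.26). Cdh1 had 142 and 107 counts in KO, against 10 and 9 in WT. Like En2, Cdh1 passed the filter on low counts only through the KO libraries, so its call is no support for a difference. Krt8 (2 and 0 counts in KO, 6 and 18 in WT) was too low to be tested. So was Krt18 (0 and 0 in KO, 3 and 7 in WT). The sums of 3.30 and 2.91 CPM in KO and 0.692 and 1.27 CPM in WT were carried in KO by Cdh1. Of 3 macrophage and blood markers Csf1r was higher (1.74), 1 was lower and 1 had no call. The lower one passed the filter on low counts only through the WT libraries. In bulk RNA, a change in the share of a cell type and a change in RNA per cell cannot be told apart, and the part of these differences in the Zic values was not tested.

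The targeted gene checked the labels. Mbd4 had 373 and 302 counts in KO, against 663 and 630 in WT, a log2 fold change of -0.99 (SE 0.11, adjusted p 2.8e-06 in edgeR's test), so part of its transcript was still counted in KO cells. Ift122, a gene of the ciliary transport machinery that acts in Hedgehog signalling and lies 98 bases from Mbd4 in the annotation, had 7 and 3 counts in KO, against 1002 and 944 in WT (log2 fold change -7.62). Its loss coincides with that of Mbd4 in both KO libraries, and the 2 cannot be told apart in the Zic and Hedgehog values. The libraries held 39108275 to 47567835 counts, and replicate libraries correlated at 0.994 to 0.996 in log2 CPM across genes, beside 0.923 to 0.924 between genotypes.

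Last, the genes with the pattern most like that of each Zic gene were found by the distance between log2 CPM profiles centred on their means over the 4 libraries, among genes with a mean of at least 1 CPM. Nearest to Zic1 were 1500009L16Rik, Ankrd24 and Gm1673, at distances of 0.0385, 0.0620 and 0.0736 log2 units. Nearest to Zic4 were Sytl4, Fam123a and Gbp3, at 0.0753, 0.0839 and 0.0996. Nearest to Zic2 were Dpyd, Pgm5 and Lmx1b, at 0.239, 0.293 and 0.334, and nearest to Zic5 were Rhbdl3, H2-DMb1 and E030010N08Rik, at 0.253, 0.335 and 0.338. No Zic gene was among the nearest of another. For Zic2 and Zic5, 1 of 3 nearest genes was the same with a smaller prior count, so these names depend on the treatment of low WT counts. With 4 libraries in 2 groups, the distance mostly reflects the size of the KO against WT difference.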

How the data were processed

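The authors aligned reads to mm9 with TopHat2 and Bowtie and counted them per Ensembl gene with HTSeq 0.5.4p3; base calling used CASAVA 1.8.2 and their own comparison DESeq. The deposited table holds raw counts of 23537 genes, which were used as deposited. Other deposited columns hold normalized values of the authors (counts divided by a size factor, and these per kb), used only to recover gene lengths, and 3 columns of the authors' comparison (log2 ratio and p-values), which were not used. Genes were placed with the mm9 annotation, which holds 23393 of them. In R 4.3.3, edgeR 4.0.16 (filterByExpr, TMM, quasi-likelihood test, Benjamini-Hochberg) tested 15538 genes with genotype as the only term. CPM use TMM-scaled totals. Calls required an adjusted p under 0.05, or under 0.01 with a log2 fold change over 2. Standard errors were derived from the fold change and the F statistic of the test. The scripts were tested on simulated data. DESeq2 1.42.0, limma 3.58.1 (voom), 3 other scalings, 2 other filters, a replicate block and leaving out each library were the alternatives.

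The Zic genes and the lists were chosen with earlier results of these data known. Named were every Zic gene, Mbd4, Ift122, the neighbours called and the nearest tested gene on each side, up to 3 genes per direction and list with the largest change among called genes with a mean of at least 1 CPM, and the 3 genes most like each Zic gene. Ratios of genes with 1 to 3 counts in a group carry exact 95% counting intervals. No protein sequence was used here, and some genes that this rule would name are not reported here.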

Additional observations from a re-analysis of the deposited data

How the results depend on the processing

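The log2 fold changes of the 4 Zic genes kept their sign under every alternative. They ranged, with each library left out in turn, from 1.95 to 2.11 for Zic1, 5.94 to 6.99 for Zic2, 2.66 to 2.81 for Zic4 and 3.77 to 4.37 for Zic5. Library totals, which shift the median of all genes by 0.15, gave 2.20 for Zic1 and 2.88 for Zic4, with 14 neighbours called higher instead of 10 and 3 called lower instead of 5. Genes called over the table at the fold limit numbered 900 higher and 489 lower. They numbered 445 and 244 with at least 10 counts in every library, a filter that removes genes near 0 in one genotype, and 5335 and 5045 without the fold limit. Leaving out each library gave 797 to 947 higher and 442 to 515 lower, and among neighbours 9 to 11 higher and 4 to 6 lower. In the lists it gave 22 to 25 higher and 9 to 12 lower. With 5 genes on each side, 5 neighbours were higher and 1 lower. With the exon length of the annotation, Zic1 made up 66.5% of the summed level in KO and 92.8% in WT, Zic2 23.2% in KO, and Zic4 3.74% in KO and 3.25% in WT. With a prior count of 0.5, 1 of 3 nearest genes was shared for Zic2 and 1 for Zic5.

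Deviations of same-numbered libraries correlated at -0.03, so no strong shared effect of the replicate number was seen. This cannot settle whether the samples were paired. With the replicate block the log2 fold changes were 2.05 for Zic1, 6.38 for Zic2, 2.73 for Zic4 and 4.05 for Zic5, 906 genes were called higher and 488 lower, 10 and 5 neighbours, and 24 and 11 genes of the lists. With 2 libraries per genotype and 58 Zic2 counts in WT, the depth limits the fold of Zic2 more than its direction.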
